A study of Mus musculus with 21 samples.

Results

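Expression of 9 genes that write, copy or remove DNA methylation was described across cultures of mouse embryonic stem cells. The genes were chosen by name, as the measured members of the Dnmt, Uhrf and Tet families: Dnmt1, Dnmt3a, Dnmt3b, Dnmt3l, Uhrf1, Uhrf2, Tet1, Tet2 and Tet3. Each of the 9 symbols matched 1 of the 31053 gene IDs in the count tables, and all 9 were among the 10643 genes that passed the filter on low counts. The cells were E14Tg2a, an established male embryonic stem cell line of 129 background, and 1 allele of Rex1 (Zfp42) in them carries a knocked-in, destabilised green fluorescent protein, GFPd2. The 21 libraries formed 7 groups of 3 replicates, named in the labels 2i+LIF PO, 2i+LIF LP, CH+LIF LP, LIF LP, 2i+LIF HP, CH+LIF HP and LIF HP.

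LIF is a cytokine that acts through the transcription factor STAT3. CH is CHIR99021, an inhibitor of GSK3, and PD is PD0325901, an inhibitor of the kinase MEK; 2i usually stands for the pair. The labels give 1 growth protocol for all groups: NDiff227, a serum-free basal medium, with CHIR99021 and PD0325901 at first, and from then on CH, PD and LIF in turns of giving and withdrawing at the passages. The series was sampled at zero passage and at later times of culture. PO was read as zero passage because it occurs with 2i+LIF alone, and the labels do not say which of LP and HP is the longer culture. All groups share the line and its knock-in, so that they describe 1 genotype, and the labels do not say whether the replicates of a group came from separate cultures. The p-values below therefore measure the spread between these libraries, which may be technical.

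In mammals, DNA methylation sits mostly on cytosines followed by guanine (CpG). Dnmt3a and Dnmt3b are the de novo methyltransferases, which place methyl groups on unmethylated DNA, and Dnmt3l is a cofactor without catalytic activity that binds and stimulates them. Dnmt1 copies methylation onto the new strand after replication; Uhrf1 recognises the hemimethylated site and recruits Dnmt1 to it, while its relative Uhrf2 binds methylated DNA but does not replace Uhrf1 in maintenance. Tet1, Tet2 and Tet3 are dioxygenases that oxidise 5-methylcytosine to 5-hydroxymethylcytosine and further, a route to loss of the mark. Embryonic stem cells are known for changing their methylation with the culture medium: serum cultures are highly methylated, and cultures with both inhibitors are not. Methylation itself was not measured here, only the RNA of these genes.

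The promoters of Dnmt3l and Uhrf2 are shown because these were the members whose levels differed most between the groups and because the 2 genes differ in CpG content. Each sequence runs 5′ to 3′ on the gene's strand, from 250 bases before to 50 bases after a transcription start in RefSeq on GRCm38.p6, and the capitals mark CpG. Dnmt3l has 3 such starts, all on the + strand of chromosome 10, in chr10:78042037-78042336, chr10:78049592-78049891 and chr10:78055085-78055384. The single Uhrf2 window is chr19:30030263-30030562 on the + strand.
Dnmt3l start 1: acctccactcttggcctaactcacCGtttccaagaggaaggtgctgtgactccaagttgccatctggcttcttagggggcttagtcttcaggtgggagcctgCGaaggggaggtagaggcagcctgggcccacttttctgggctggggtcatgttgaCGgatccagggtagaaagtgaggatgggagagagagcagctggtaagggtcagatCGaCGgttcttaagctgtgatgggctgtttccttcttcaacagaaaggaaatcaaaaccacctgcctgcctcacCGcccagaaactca
Dnmt3l start 2: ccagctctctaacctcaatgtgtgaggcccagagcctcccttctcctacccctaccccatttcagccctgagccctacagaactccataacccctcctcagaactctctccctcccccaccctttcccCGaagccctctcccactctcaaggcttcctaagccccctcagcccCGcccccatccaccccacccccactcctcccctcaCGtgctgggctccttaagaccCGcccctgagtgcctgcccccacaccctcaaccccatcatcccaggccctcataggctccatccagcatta
Dnmt3l start 3: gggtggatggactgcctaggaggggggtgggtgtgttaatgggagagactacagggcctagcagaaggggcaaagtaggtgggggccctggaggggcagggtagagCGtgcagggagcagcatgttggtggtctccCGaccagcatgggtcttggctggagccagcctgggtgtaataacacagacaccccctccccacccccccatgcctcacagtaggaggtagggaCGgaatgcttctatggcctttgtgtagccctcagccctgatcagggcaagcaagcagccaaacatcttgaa
Uhrf2 start 1: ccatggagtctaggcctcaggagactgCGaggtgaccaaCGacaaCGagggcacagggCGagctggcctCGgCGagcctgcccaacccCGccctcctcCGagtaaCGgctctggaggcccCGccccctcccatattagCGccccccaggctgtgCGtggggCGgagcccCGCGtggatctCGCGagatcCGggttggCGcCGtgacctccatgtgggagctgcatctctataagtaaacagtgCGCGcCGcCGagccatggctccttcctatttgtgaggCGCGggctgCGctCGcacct
The Dnmt3l windows hold 6, 4 and 3 CpG and the Uhrf2 window holds 28, against a median of 7 over the 32851 promoters of this length in the table. The counts are per gene, so they do not tell which Dnmt3l start was used. All 9 members matched the table, with 16 starts in all. A GC box (GGGCGG, searched on both strands) was in 13 of the 16 windows, the Uhrf2 window and the first pair of Dnmt3l windows among them, and in 35.7% of all promoters of this length. A TCF/LEF core (CTTTGA, both strands) was in 1 of the 16 and in 16% of all, an E-box (CACGTG) in 2 and in 7.15%, and an octamer (ATTTGCAT, both strands) in 0 and in 1.74%. None of the 4 motifs contains another, and a match is a description of the window only.

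Gene counts per library ranged from 1132126 to 3783043, with a median of 1763531. The libraries that differed most from their own replicates, and are called those that stood apart, were 2i+LIF LP replicate 1, in which 1 gene, Gm42418, took 31.7% of the gene counts, and 2i+LIF PO replicate 1, in which mitochondrial genes took 39.1%. The PO libraries carry another sequencing run in their file names than the rest, so run and PO cannot be told apart. All 9 embryonic stem cell markers examined (Pou5f1, Sox2, Nanog, Zfp42, Esrrb, Klf4, Tfcp2l1, Dppa5a and Fbxo15) were detected in every group. Their summed level ranged from 1515 CPM (a gene count divided by the total count of its library, which edgeR scaled for composition) to 4156 CPM over the libraries, against 2.88 to 36.4 CPM for 6 fibroblast markers and 0.649 to 16.4 CPM for 6 primitive endoderm markers. Trophectoderm markers, 5 in number with Elf5 at 0 in all libraries, summed to 32.5 to 169.4 CPM, and 5 neural markers to 19 to 232.8 CPM. In LIF HP the trophectoderm sum was 130.9 to 169.4 CPM, above all other groups (32.5 to 130.7 CPM); Tfap2c made up most of it (121.6 to 152.7 CPM), and Cdx2 was at 0 to 2.06 CPM there.

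Known targets of the pathways that the inhibitors act on went against some labels. Dusp6, a target of ERK signalling that PD0325901 lowers, was at 0, 1.23 and 0 CPM in LIF HP, which by its label lacks the inhibitor, and at 34.4 and 26.3 CPM in replicates 2 and 3 of 2i+LIF LP, whose label includes it. Spry4, another such target, was at 0 in all LIF HP libraries and at 17.7 and 6.71 CPM in the same replicates of 2i+LIF LP. Sp5, a target of Wnt/beta-catenin signalling that CHIR99021 raises, was at 0.969, 0.605 and 1.52 CPM in CH+LIF LP, whose label includes that inhibitor, and at 19.6, 30.2 and 23.7 CPM in LIF HP, whose label lacks it. Axin2, of the same pathway, was at 0, 4.84 and 10.6 CPM in CH+LIF LP and at 12.4, 8.62 and 6.18 CPM in LIF HP, with overlap. Other values went with the labels. In LIF LP, Sp5 was at 1.1, 0 and 0 CPM and Axin2 at 0, 1.33 and 0.962 CPM, and in 2i+LIF HP Axin2 was at 48.8, 73.6 and 53.7 CPM. Wrong labels and the regimen of giving and withdrawing the drugs cannot be told apart as sources of the readouts that went against labels. Every comparison of media below is therefore between libraries as labelled, and does not show the effect of an inhibitor.

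Among the 6 cultured groups (all but PO), 5 of the 9 members differed in edgeR's joint quasi-likelihood test, which asks for any difference between groups, where 13.1% of all genes tested did. These were Dnmt3l (adjusted p = 2.86e-06), Uhrf2 (1.51e-05), Dnmt3b (0.00321), Tet1 (0.024) and Dnmt1 (0.0317). Tet2 (0.0591), Tet3 (0.0676), Uhrf1 (0.383) and Dnmt3a (0.481) did not pass. Over the 18 cultured libraries, the share of the variance of log2 CPM that lay between groups was 92.1% for Dnmt3l, 89% for Uhrf2, 79.5% for Dnmt3b and 71.4% for Tet1. It was 59.5% for Tet2, 58.2% for Tet3, 50.2% for Dnmt1, 37.9% for Dnmt3a and 33.4% for Uhrf1, against a median of 43.8% over all genes tested. Per kilobase of exon, the mean level over all libraries was highest for Tet1 (31 CPM per kb), Uhrf1 (27.7), Dnmt3l (25.3) and Dnmt1 (17.2). Dnmt3b (9.52 CPM per kb), Tet2 (6.79), Uhrf2 (2.97) and Dnmt3a (2.16) lay below these, and Tet3 was lowest at 0.443. The exon length is that of all annotated exons together, and how evenly the libraries cover a transcript is not given in the sources used here, so this order is approximate.

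**Figure D1:**
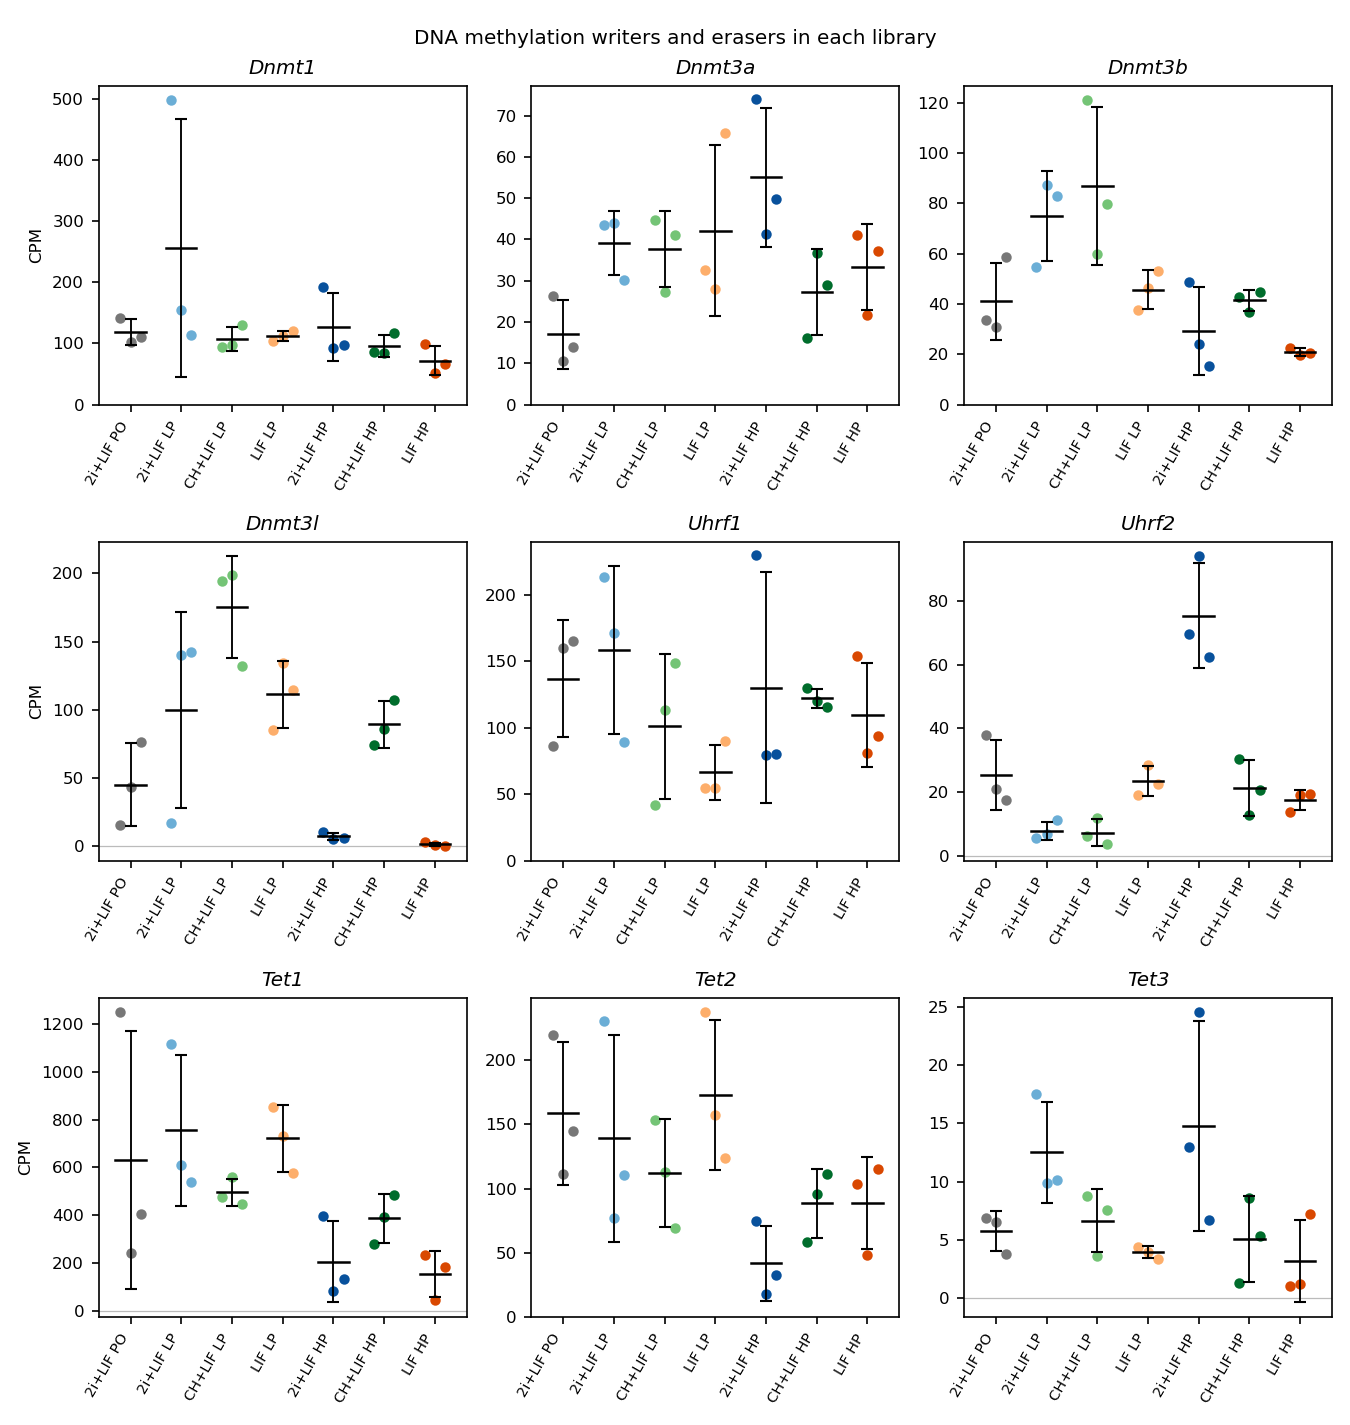
Level of each of the 9 genes in every library, in CPM on a linear axis, by group; points are libraries, horizontal bars are group means and error bars are SD (n = 3). Dnmt3l is at 10.2 CPM or less in all libraries of 2i+LIF HP and LIF HP, and Uhrf2 is at 62.3 CPM or more in all libraries of 2i+LIF HP and at 38 CPM or less in all others.

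The de novo group was led by Dnmt3l, the cofactor (ENSMUSG00000000730, chr10:78041947-78063622 on GRCm38, + strand), whose RNA was low in 2 of the 3 media at HP. In 2i+LIF HP it was at 10.2, 4.91 and 5.75 CPM, and in LIF HP at 2.58, 0.616 and 0 CPM, from 5, 1 and 0 counts. In CH+LIF HP it was at 74, 85.9 and 107.4 CPM. Every library of CH+LIF HP was thus above every library of the other HP groups. At LP the values were 16.8, 139.9 and 142.6 CPM in 2i+LIF, 194.8, 198.5 and 132.1 CPM in CH+LIF, and 85.4, 134.1 and 114.5 CPM in LIF, so that the LP media overlapped. The low value in 2i+LIF LP is that of replicate 1, a library that stood apart. In PO, Dnmt3l was at 15.3, 43.1 and 76.3 CPM, and the lowest is again the library that stood apart.

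Dnmt3l fell from LP to HP in 2i+LIF by 3.8 on the log2 scale (SE 0.64, edgeR adjusted p = 0.000831) and in LIF by 6.37 (SE 0.79, adjusted p = 1.30e-05). In CH+LIF the difference was -0.98 (95% interval -2.08 to 0.13) and did not pass. At HP it was higher in CH+LIF than in 2i+LIF by 3.63 (SE 0.64, edgeR adjusted p = 0.0021), and lower in LIF than in CH+LIF by 6.05 (SE 0.79, adjusted p = 0.000109). LIF HP lay below 2i+LIF HP without overlap, and 28% of all genes tested did not overlap in this comparison, in either direction. The log2 difference of Dnmt3l was -2.42 (SE 0.88), but this did not pass (edgeR adjusted p = 0.122). It was called in 4 of 28 alternative settings, namely DESeq2, no filter on low counts, and the omission of 2i+LIF LP replicate 1 or of both libraries that stood apart. A count of 0 in LIF HP replicate 3 allows up to 3 counts, or 3.09 CPM, a limit of counting error only. Whether the change from LP to HP differed between LIF and CH+LIF was itself tested, and the difference in log2 change was -5.4 (SE 0.97, edgeR adjusted p = 0.0103). That call was lost without CH+LIF LP replicate 3 or LIF HP replicate 2 (adjusted p up to 0.0638), and the one in 2i+LIF from LP to HP with only these groups in the fit (0.0513). The same interaction of CH+LIF with 2i+LIF was 2.82 (SE 0.81, adjusted p = 0.29), which did not pass. It did pass in 3 of 28 alternative settings, namely without the filter on low counts, without 2i+LIF LP replicate 1, whose Dnmt3l was low for its group, and without both libraries that stood apart.

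Dusp6 was low in every library in which Dnmt3l was low. In PO, Dusp6 was at 3.69, 2.61 and 2.24 CPM, in 2i+LIF HP at 2.32, 4.91 and 2.88 CPM and in 2i+LIF LP replicate 1 at 0.701 CPM. In CH+LIF HP it was at 30.5, 40.5 and 40.4 CPM, in CH+LIF LP at 33.4, 41.8 and 38.7 CPM, and in LIF LP at 20.4, 15.3 and 47.1 CPM. PO replicates 2 and 3 held little Dusp6 with 43.1 and 76.3 CPM of Dnmt3l, so the reverse did not hold. The part of ERK signalling in the Dnmt3l values was not tested. Nor was that of the trophectoderm markers, whose sum was highest in LIF HP, mostly through Tfap2c, where Dnmt3l was lowest. The neural sum was 192.2 to 202.0 CPM in LIF LP and 91.1 to 133.0 CPM in LIF HP. In CH+LIF, where the Dnmt3l difference did not pass, it was 127.4 to 135.0 CPM at LP and 46.7 to 58.6 CPM at HP. The part of the neural markers was not tested either. Reads of Dnmt3l share 67 bases of exon with Aire on the other strand, and the strand setting of the counting is not given in the sources used here.

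Dnmt3b, one of the catalytic de novo enzymes (ENSMUSG00000027478, chr2:153649450-153687730, + strand), was lower at HP in all 3 media, but in none of them past the threshold in edgeR. In 2i+LIF it was at 54.7, 87.4 and 82.8 CPM at LP and 48.8, 24 and 15.3 CPM at HP. In CH+LIF the values were 121.1, 59.9 and 79.7 CPM at LP and 42.8, 36.7 and 44.9 CPM at HP, and in LIF they were 37.5, 46.5 and 52.9 CPM at LP and 22.7, 19.7 and 20.6 CPM at HP. Within each medium the LP and HP libraries of Dnmt3b did not overlap, as was the case for 16.8% of all genes tested in 2i+LIF, 15.1% in CH+LIF and 39.3% in LIF. The log2 differences of HP against LP were -1.32 in 2i+LIF (SE 0.38, edgeR adjusted p = 0.0516), -1.12 in LIF (SE 0.4, adjusted p = 0.0693) and -1.07 in CH+LIF (SE 0.38, adjusted p = 0.694). Each p is adjusted within its own contrast, and in CH+LIF only 1 gene passed among all those tested. The difference in 2i+LIF was called in 12 of 28 alternative settings, the replicate block and DESeq2 among them, and that in LIF in 6 of 28, among them DESeq2. In PO, Dnmt3b was at 33.8, 30.9 and 58.6 CPM.

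Dnmt3a, the other de novo enzyme (ENSMUSG00000020661, chr12:3806007-3914443, + strand), did not differ among the cultured groups past the threshold, and was lowest in PO. In PO it was at 26.4, 10.7 and 14 CPM, whereas the group means in culture lay between 27.3 and 55.1 CPM. The values were 73.9, 41.4 and 49.8 CPM in 2i+LIF HP and 32.5, 27.9 and 65.9 CPM in LIF LP, all above every PO library. Relative to PO it was higher in 2i+LIF HP by 1.72 on the log2 scale (SE 0.42, edgeR adjusted p = 0.0104) and in LIF LP by 1.34 (SE 0.42, adjusted p = 0.0378). Both calls were lost without PO replicate 2 and with only the groups compared in the fit, and that in LIF LP also without PO replicate 3 or LIF LP replicate 3 (adjusted p up to 0.247). Dnmt3a shares 133 exon bases with the antisense gene Dnmt3aos.

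Uhrf2, the relative of Uhrf1 (ENSMUSG00000024817, chr19:30030513-30093722, + strand), had its highest RNA level in 2i+LIF HP. There it was at 69.7, 93.8 and 62.3 CPM, against 5.61, 6.89 and 11.2 CPM in 2i+LIF LP. In CH+LIF it was at 6.3, 12.1 and 3.8 CPM at LP and 30.5, 12.9 and 20.6 CPM at HP, and in LIF at 19.3, 28.5 and 22.6 CPM at LP and 13.9, 19.1 and 19.6 CPM at HP. In PO it was at 38, 20.9 and 17.7 CPM. The libraries of 2i+LIF HP were thus above all others. Some markers of other cell types also reached their highest value in this group. Cdx2 was at 6.71 to 21.4 CPM there (at most 2.24 CPM elsewhere). Krt7 was at 1.86 to 35.5 CPM (at most 7.21) and Pdgfra at 0.958 to 12.5 CPM (at most 4.12), both overlapping LIF HP. Of the same lists, Eomes was at 2.88 to 7.9 CPM, against 10.1 to 30.2 CPM in 2i+LIF LP. Tfap2c was at 28.8 to 75.8 CPM, against 121.6 to 152.7 CPM in LIF HP. Elf5, Gata4 and Sox7 were at 0 in 2i+LIF HP. The part of these markers in the Uhrf2 level was not tested. From LP to HP, Uhrf2 rose in 2i+LIF by 3.24 on the log2 scale (SE 0.45, edgeR adjusted p = 0.00013). In CH+LIF the difference was 1.49 (SE 0.46, edgeR adjusted p = 0.522), without overlap but past no threshold, and in LIF it was -0.43 (95% interval -1.31 to 0.45). Of all genes tested, 15.1% did not overlap between LP and HP in CH+LIF.

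At HP, Uhrf2 was lower than in 2i+LIF both in LIF (log2 difference -2.11, SE 0.43, edgeR adjusted p = 0.00506) and in CH+LIF (-1.83, SE 0.42, adjusted p = 0.0157). The call in CH+LIF was lost without 2i+LIF HP replicate 2, CH+LIF HP replicate 2 or CH+LIF HP replicate 3 (adjusted p up to 0.151). The change from LP to HP differed between LIF and 2i+LIF, by -3.67 (SE 0.62, edgeR adjusted p = 0.00681). At LP, Uhrf2 in LIF lay above 2i+LIF (log2 difference 1.56, SE 0.45) and above CH+LIF (1.64, SE 0.45) without overlap. Neither passed in edgeR (adjusted p = 0.127 and 0.388), and DESeq2 called the first. Of all genes tested, 15.6% and 14.2% did not overlap in these comparisons. Against PO, Uhrf2 was lower in 2i+LIF LP (-1.66, SE 0.44, edgeR adjusted p = 0.0284) and in CH+LIF LP (-1.75, SE 0.45, adjusted p = 0.0167), and higher in 2i+LIF HP (1.58, SE 0.41, adjusted p = 0.0145). The first was lost without PO replicates 1 or 2 or 2i+LIF LP replicates 1 or 2 (adjusted p up to 0.0801), without both libraries that stood apart (0.127) and with only the groups compared in the fit (0.319). The second was lost without PO replicate 1 or CH+LIF LP replicates 1 or 3 (up to 0.084) and with only its groups (0.0824), and the last without PO replicates 2 or 3 or 2i+LIF HP replicate 2 (up to 0.0664) and with only its groups (0.0689).

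Uhrf1, the factor that brings Dnmt1 to hemimethylated DNA (ENSMUSG00000001228, chr17:56303321-56323486, + strand), did not follow Uhrf2. Its group means lay between 66.6 ± 20.6 CPM in LIF LP and 158.4 ± 63.3 CPM in 2i+LIF LP (SD, n = 3). The 2i+LIF HP libraries, at 230.5, 79.6 and 80.5 CPM, overlapped those of CH+LIF HP, at 130.4, 120.2 and 115.8 CPM. In edgeR 0 of the 15 comparisons of pairs of groups passed for Uhrf1, with 2 at an unadjusted p under 0.05, and DESeq2 called 0. From LP to HP, the log2 difference of Uhrf1 in 2i+LIF was -0.28 (95% interval -1.2 to 0.65).

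Dnmt1, the maintenance enzyme (ENSMUSG00000004099, chr9:20907209-20959888, - strand), passed the joint test with 1 library far above the rest. It was at 497.9, 155.4 and 113.5 CPM in 2i+LIF LP, where the first value is that of the library that stood apart. All other libraries lay between 51.7 and 191.9 CPM, with the lowest group in LIF HP at 98.4, 51.7 and 65.9 CPM. When 2i+LIF LP replicate 1 was left out, the joint test gave an edgeR adjusted p of 0.328 in place of 0.0317, and it was between 0.0507 and 0.0745 without LIF LP replicate 2, CH+LIF HP replicate 1 or LIF HP replicates 2 or 3. In edgeR 0 of the 15 pairwise comparisons passed for Dnmt1, with 4 at an unadjusted p under 0.05, and DESeq2 called 0. In 2i+LIF LP replicate 1 Tet1 (1115 CPM) was also high for its group.

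Among the erasers, Tet1 (ENSMUSG00000047146, chr10:62804570-62908996, - strand) had the highest counts and was lower at HP than at LP in LIF. In LIF it was at 852.6, 733.0 and 577.6 CPM at LP and 234.5, 48.7 and 184.4 CPM at HP, so that every HP library was below every LP library. In 2i+LIF it was at 1115, 610.1 and 538.5 CPM at LP and 398.3, 83.9 and 136.1 CPM at HP, also without overlap. In CH+LIF it was at 478.7, 560.5 and 448.0 CPM at LP and 280.9, 395.0 and 486.7 CPM at HP, where LP and HP overlapped. Of all genes tested, 39.3% in LIF and 16.8% in 2i+LIF did not overlap between LP and HP. Tet1 fell from LP to HP in LIF by 2.21 on the log2 scale (SE 0.58, edgeR adjusted p = 0.0168). The differences were -1.87 in 2i+LIF (SE 0.57, edgeR adjusted p = 0.0674, called in 7 of 28 alternative settings, DESeq2 among them) and -0.36 in CH+LIF (95% interval -1.5 to 0.79). The interaction of LIF with CH+LIF was -1.85 (SE 0.79, adjusted p = 0.36), so a difference between media in the change of Tet1 was not shown. LIF HP, where Tet1 fell, is also the group with the highest trophectoderm sum, most of it Tfap2c. Eomes was at 4.12 to 8.62 CPM there, against 11.2 to 16.2 CPM in PO. The neural sum was 192.2 to 202.0 CPM in LIF LP and 91.1 to 133.0 CPM in LIF HP. In CH+LIF the neural sum was 127.4 to 135.0 CPM at LP and 46.7 to 58.6 CPM at HP. The part of these markers in the Tet1 values was not tested.

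The call for Tet1 in LIF was lost without any 1 of LIF LP replicates 1 and 2 and LIF HP replicates 2 and 3, with edgeR adjusted p up to 0.0977. In the joint test Tet1 did not pass without LIF HP replicate 2 (0.0562) or LIF HP replicate 3 (0.0593). PO spanned a wide range for Tet1, at 1247, 243.7 and 405.6 CPM, and the highest value is that of the library that stood apart. LIF HP was lower than PO by a log2 difference of -2.02 (SE 0.58, edgeR adjusted p = 0.0236), which became -1.08 (adjusted p = 0.23) without that library and also did not pass without LIF HP replicates 2 or 3 (0.134 and 0.0697). This call was lost as well without both libraries that stood apart (edgeR adjusted p = 0.14) and with only the groups compared in the fit (0.102).

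Tet2 (ENSMUSG00000040943, chr3:133463679-133545139, - strand), whose protein lacks the CXXC domain that Tet1 and Tet3 have, was lowest in 2i+LIF HP. There it was at 74.4, 18 and 32.6 CPM, against 230.7, 77.1 and 110.2 CPM in 2i+LIF LP and 220.0, 111.4 and 144.6 CPM in PO. The HP libraries were below all of these. Tet2 was lower in 2i+LIF HP than in PO by a log2 difference of -1.91 (SE 0.49, edgeR adjusted p = 0.0138) and than in 2i+LIF LP by -1.72 (SE 0.49, adjusted p = 0.0464). The first was lost without 2i+LIF HP replicates 2 or 3 (adjusted p up to 0.0929) and with only the groups compared in the fit (0.0709). The second call held in 14 of 28 alternative settings, and the omission of 2i+LIF LP replicate 1 left -1.12 (adjusted p = 0.238). The other HP groups had means of 88.3 ± 27.1 CPM in CH+LIF and 89 ± 36 CPM in LIF (SD, n = 3). Tet2 shares 43 exon bases with Gm42567 on the other strand, so reads there could belong to either gene.

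Tet3 (ENSMUSG00000034832, chr6:83362373-83459084, - strand), known for its role on the paternal genome after fertilisation, was near the lower limit of what these libraries measure, with 2 to 45 counts per library. It was at 13, 24.5 and 6.71 CPM in 2i+LIF HP and 17.5, 9.9 and 10.1 CPM in 2i+LIF LP. In LIF HP it was at 1.03, 1.23 and 7.21 CPM, and in LIF LP at 4.41, 3.98 and 3.37 CPM. LIF HP against 2i+LIF HP gave a log2 difference of -2.43 (SE 0.73) with overlapping libraries and did not pass (edgeR adjusted p = 0.0604). It was called in 7 of 28 alternative settings, among them DESeq2, no filter on low counts and the omission of both libraries that stood apart.

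Counted by comparison, members passed mainly where 2i+LIF HP or LIF HP took part. Between media at LP, 0 of 9 members passed in edgeR in each of the 3 comparisons. The share of all genes that passed was 0% for CH+LIF against 2i+LIF, 0.489% for LIF against 2i+LIF and 0.047% for LIF against CH+LIF. At an unadjusted p under 0.05 there were 1, 4 and 2 members in that order, and DESeq2 called 1 (Uhrf2 in LIF against 2i+LIF). At HP, 2 of 9 passed for CH+LIF against 2i+LIF (background 2.02%), 1 for LIF against 2i+LIF (3.78%) and 1 for LIF against CH+LIF (1.47%).

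From LP to HP, 3 of 9 members passed in 2i+LIF (Dnmt3l, Uhrf2 and Tet2; background 3.67%) and 2 in LIF (Dnmt3l and Tet1; 9.96%). In CH+LIF 0 passed in edgeR (background 0.0094%), with 2 members at an unadjusted p under 0.05 and 0 called by DESeq2. In the interactions of medium with HP against LP, 1 member passed for LIF with 2i+LIF (Uhrf2; background 0.15%) and 1 for LIF with CH+LIF (Dnmt3l; 0.423%). For CH+LIF with 2i+LIF 0 passed in edgeR (background 0.0188%), with 2 members at an unadjusted p under 0.05 and 0 called by DESeq2. The median log2 difference of the 9 members from LP to HP was -1 in 2i+LIF, -0.36 in CH+LIF and -0.64 in LIF, beside 0.01, 0 and 0.01 over all genes tested.

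Against PO, 10 calls were made in the 6 comparisons, which share the PO libraries and so are not independent of each other. There was 1 in 2i+LIF LP (background 5.06%), 2 in CH+LIF LP (8.31%), and 1 in LIF LP (12%). At HP there were 4 in 2i+LIF (10.6%) and 2 in LIF (12.3%). In CH+LIF HP 0 passed in edgeR (background 5.82%), with 0 members at an unadjusted p under 0.05 and 0 called by DESeq2. For Dnmt3l the log2 difference from PO was 1.95 in CH+LIF LP (SE 0.55, edgeR adjusted p = 0.0281), -2.66 in 2i+LIF HP (SE 0.62, adjusted p = 0.00722) and -5.08 in LIF HP (SE 0.79, adjusted p = 0.000337). The first was lost without PO replicates 1 or 2 or CH+LIF LP replicates 1 or 2 (adjusted p up to 0.085), and the second without PO replicate 3 (0.0517). With only the groups compared in the fit, which leaves fewer libraries to estimate the spread, the 10 calls became 3. PO libraries had 7.55 to 39.1% mitochondrial counts and the cultured groups 0.21 to 9.84%, and the part of this in the differences from PO was not tested.

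**Figure D2:**
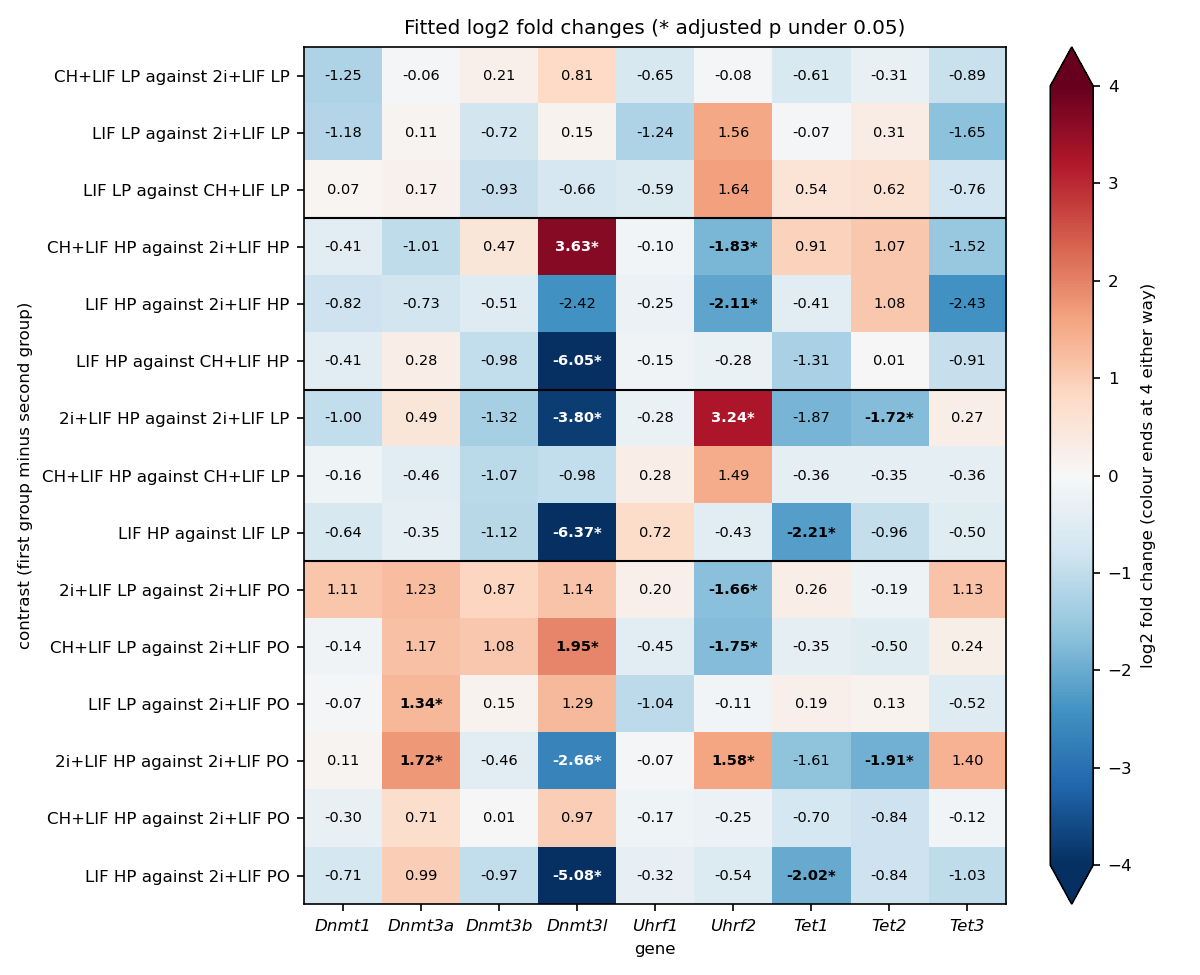
Fitted log2 fold changes of the 9 genes (columns) in the 15 comparisons of pairs of groups (rows, first group minus second), as colour and as numbers; red is higher, blue is lower, the colour ends at 4 in either direction, and a star marks an edgeR adjusted p under 0.05. The calls lie mostly in the Dnmt3l and Uhrf2 columns, where values run from -6.37 to 3.63 and from -2.11 to 3.24, and the Dnmt1, Dnmt3b, Uhrf1 and Tet3 columns hold 0 calls.

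Ordered by their mean in each of the 7 groups, the 9 members gave 54 pairs of neighbouring groups, and in 6 of them the libraries did not overlap, beside 4.89% of such pairs over all genes tested. For Dnmt3l these were PO above 2i+LIF HP and 2i+LIF HP above LIF HP, and for Uhrf2 they were 2i+LIF HP above PO and LIF HP above 2i+LIF LP. Dnmt3b in 2i+LIF LP was above LIF LP, and Tet3 in 2i+LIF LP was above CH+LIF LP. The other neighbours in these orders were not separated by their spread.

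Members of the same step did not all vary together across the 21 libraries. The values that follow are correlations of log2 CPM, given as a description: libraries of a group share their culture label, and all share the scaling by depth. Dnmt3b and Dnmt3l had a Pearson r of 0.81 (Spearman's rho 0.84), and 0.54 after subtraction of the group means. For Tet1 and Tet2, r was 0.8 (rho 0.74) and 0.85 within groups, so that replicates high in one were high in the other. Dnmt1 and Uhrf1, the partners in maintenance, had r of 0.5 (rho 0.44), whereas Uhrf1 and Uhrf2 had r of -0.14 (rho -0.24). Dnmt3a was not close to Dnmt3b (r of 0.1) or Dnmt3l (-0.12).

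**Figure D3:**
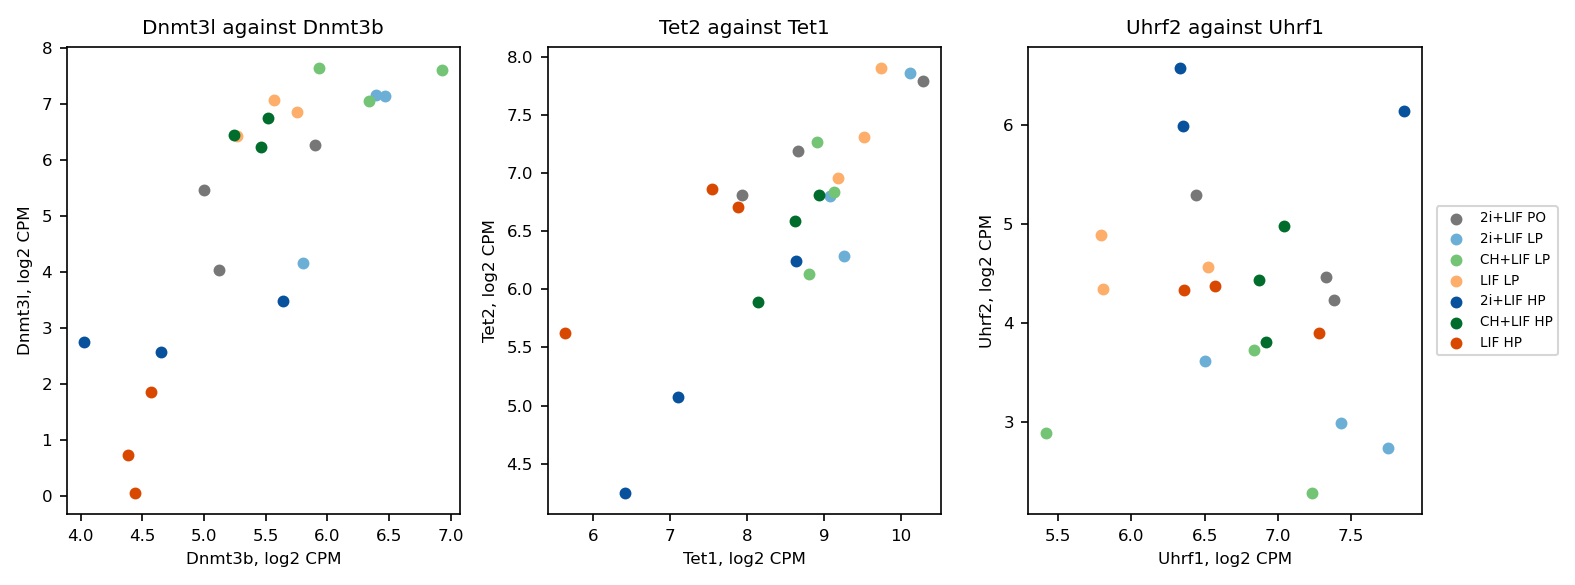
Pairs of genes in the 21 libraries, each point a library coloured by group, axes in log2 CPM. Dnmt3b and Dnmt3l (r = 0.81) and Tet1 and Tet2 (r = 0.8) spread along a line, while Uhrf1 and Uhrf2 (r = -0.14) do not.

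Ratios of counts within a library do not depend on the scaling between libraries, though at counts near 0 they depend on depth and on the 0.5 counts added to each gene. They are given as mean log2 ratios ± SD (n = 3) without a test, and not per length. The Dnmt3l to Dnmt3a ratio was -2.95 ± 0.11 in 2i+LIF HP, and its means lay between 1.48 and 2.22 in CH+LIF LP, LIF LP and CH+LIF HP. It was 0.85 ± 1.93 in 2i+LIF LP and 1.22 ± 1.74 in PO, where replicate 1 of each, a library that stood apart, had a negative ratio (-1.35 and -0.78). Without these the means were 1.95 and 2.22. The 2i+LIF LP libraries that remain are those whose Dusp6 went against their label (34.4 and 26.3 CPM, against 0.701 CPM in replicate 1). In LIF HP the Dnmt3l to Dnmt3a ratio was -3.87 and -4.56 in replicates 1 and 2, from 5 and 1 counts of Dnmt3l against 80 and 35 of Dnmt3a. Replicate 3, with 0 against 36 counts, has no ratio apart from the added counts. For Dnmt3b to Dnmt3a it was -1.02 ± 0.57 in 2i+LIF HP and -0.6 ± 0.41 in LIF HP, so that Dnmt3a had more counts than Dnmt3b in all 6 of these libraries. The means of the other groups lay between 0.21 ± 0.52 in LIF LP and 1.31 ± 0.87 in PO. Among these, LIF LP replicate 3 had fewer counts of Dnmt3b (110) than of Dnmt3a (137), and CH+LIF HP replicate 2 had 77 of each. Uhrf2 to Uhrf1 was -4.24 ± 1.14 in 2i+LIF LP and -0.62 ± 1 in 2i+LIF HP. Tet2 to Tet1 was -0.62 ± 0.58 in LIF HP and between -2.51 and -1.71 in the other groups.

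**Figure D4:**
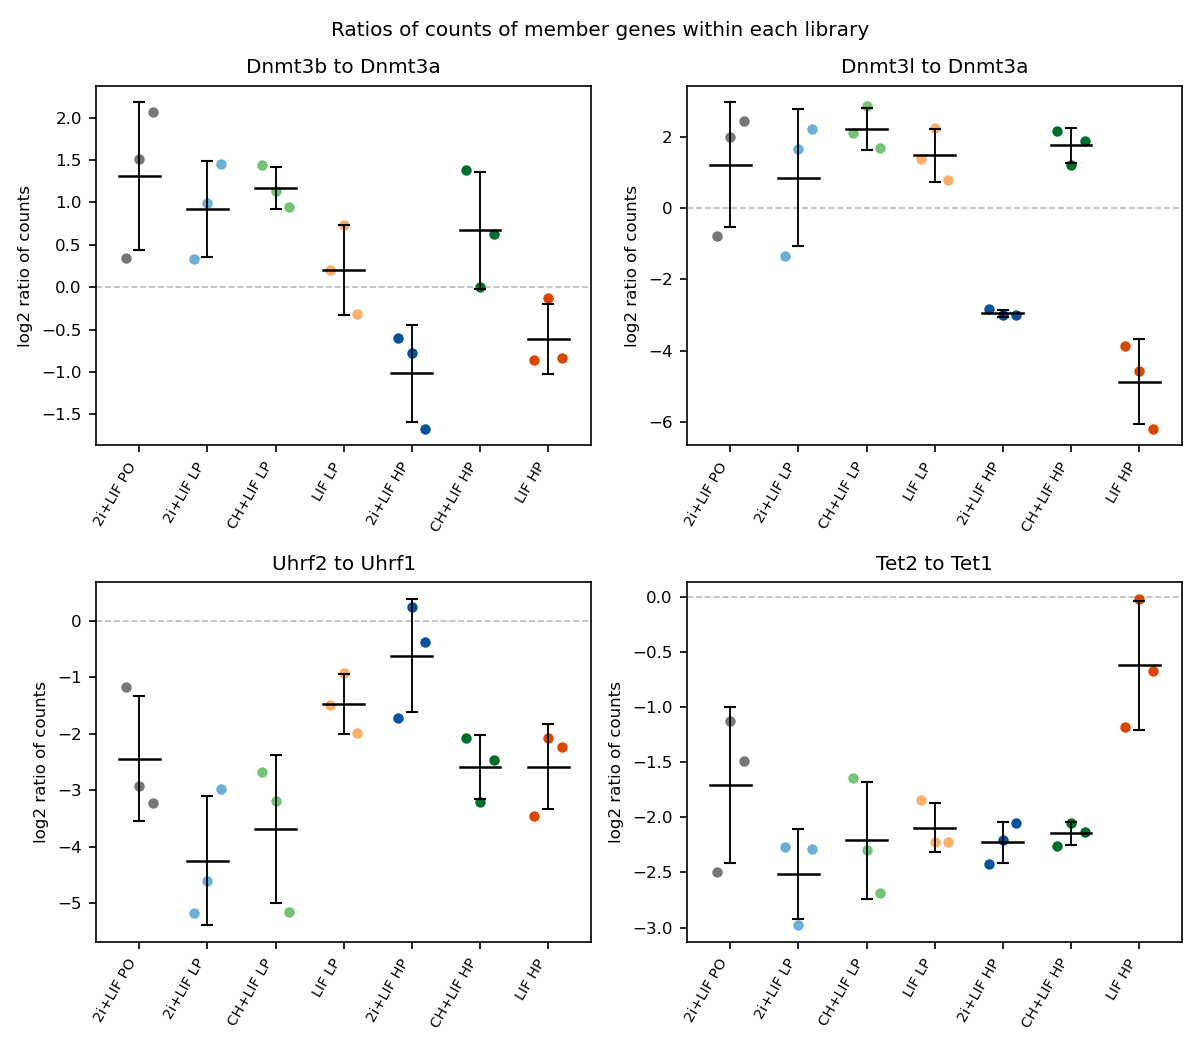
Log2 ratios of counts of 2 member genes within each library (0.5 counts added to both), by group, with group means and SD (n = 3). In 2i+LIF HP and LIF HP every library lies below 0 for Dnmt3b to Dnmt3a and for Dnmt3l to Dnmt3a.

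The genes whose log2 CPM was most like that of each member over the 21 libraries, among all genes with a mean of at least 20 CPM, were taken as a description. For Dnmt3l these were Epb41l4a (r = 0.94), Utf1 (0.91) and Aspm (0.91), and for Dnmt3b they were Parvb (0.87), Gpd2 (0.84) and Lin28a (0.84). Dnmt3a had Kif1c (0.76), Tbc1d22b (0.74) and Rrp12 (0.74). For Dnmt1 they were Nolc1 (0.96), Supt16 (0.91) and Mcm3 (0.9), where the library with 497.9 CPM of Dnmt1 weighs on r, and Spearman's rho was 0.84, 0.83 and 0.7. Uhrf1 had Drg2 (0.84), Brd2 (0.83) and Dnajc7 (0.82), and Uhrf2 had Lpcat1 (0.74), Rnf219 (0.73) and Wdr70 (0.73). Tet1 had Cenpe, Brca2 and Utrn (0.93 each), Tet2 had Tenm4 (0.91), Ncam1 (0.9) and Enah (0.89), and Tet3 had Casc3 (0.74), Kmt5b (0.72) and Ccnd1 (0.67).

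Other genes of the pathway were described from 7 lists with 90 distinct genes, all of them found in the tables, of which 80 were tested. In the joint test over the cultured groups 12 of the 80 passed (15%), near the 13.1% of all genes. Partners and regulators of DNA methylation gave 4 of 16, namely Dppa3, Pclaf, Cdca7 and Usp7, of which Dppa3 passed the filter on low counts only through 1 group. Base excision and TET partners gave 1 of 14, Parp1, which acts in DNA repair. The methyl donor and 2-oxoglutarate supply gave 1 of 16, Cbs, an enzyme of homocysteine removal. Of 9 methyl-CpG readers 0 passed in edgeR, with 1 at an unadjusted p under 0.05, and of the other methyltransferase family members, Trdmt1 and Dnmt3c, neither had enough counts to be tested.

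Dppa3 (Stella), a protein known to displace Uhrf1 from chromatin and so to impair maintenance methylation, was high in 2i+LIF HP alone. It was at 36.7, 142.8 and 73.8 CPM there and at 6.31 CPM or less in each of the other 18 libraries. The fitted log2 difference of 2i+LIF HP from LP was 5.25 (SE 0.95), and at HP those of CH+LIF and LIF from 2i+LIF were -5.45 and -5.24 (SE 0.97 each). Dppa3 passed the filter on low counts only through 2i+LIF HP, so these differences could come out in 1 direction only and are given as a description.

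Pclaf, a PCNA-binding protein that takes part in the recruitment of Dnmt1 during replication, was low in 2i+LIF HP and in PO. It was at 4.65, 10.4 and 7.67 CPM in 2i+LIF HP, against 42.8, 59.8 and 88.3 CPM in 2i+LIF LP and 5.28, 20.4 and 12 CPM in PO. The log2 difference from LP was -3.08 (SE 0.48, edgeR adjusted p = 0.000486). From PO it was -0.78 and did not pass (SE 0.48, edgeR adjusted p = 0.313), while the other 5 groups were higher than PO, by 1.79 to 3.67. At HP it was higher in CH+LIF (2.57, SE 0.48, adjusted p = 0.00347) and in LIF (3.52, SE 0.49, edgeR adjusted p = 0.000182) than in 2i+LIF. Usp7, a deubiquitinase that binds Dnmt1 and Uhrf1, fell from LP to HP in LIF by 1.36 (SE 0.36, edgeR adjusted p = 0.0167), from 578.9, 490.0 and 442.9 CPM to 254.1, 152.1 and 183.4 CPM. Cdca7, a partner of the remodeller Hells, had 200.6 CPM in 2i+LIF LP replicate 1, the library that stood apart, and at most 68.6 CPM in all others. Parp1 likewise had 951.6 CPM in that library and at most 392.5 CPM elsewhere. Cbs was at 13.4, 6.77 and 7.21 CPM in LIF HP, lower than the values in 2i+LIF HP of 49.3, 56.1 and 47.9 CPM (log2 difference -2.45, SE 0.58, edgeR adjusted p = 0.0179).

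**Figure D5:**
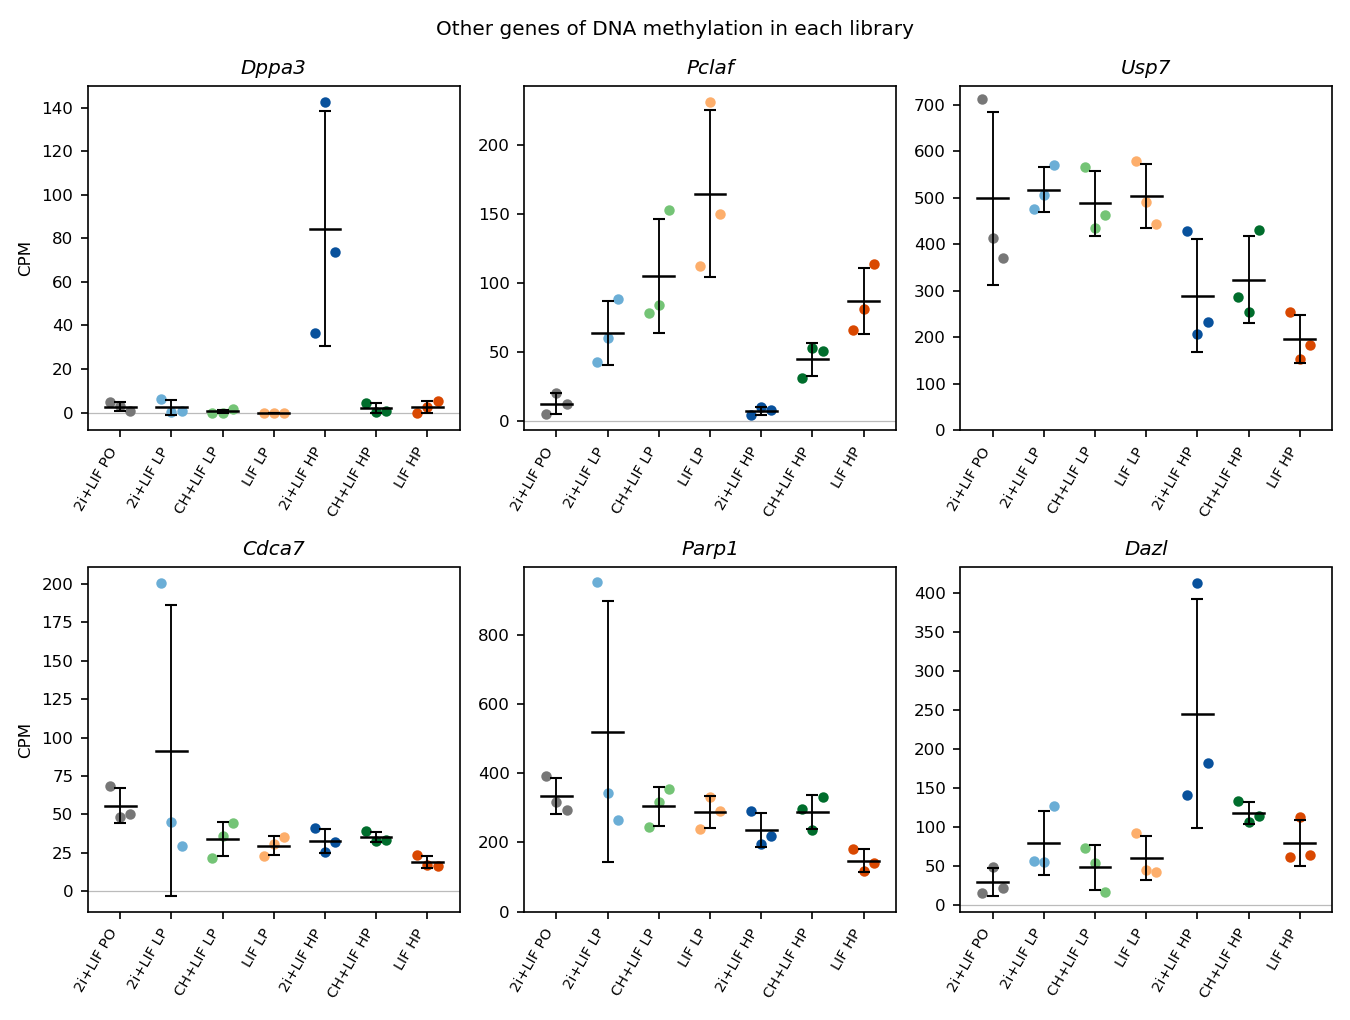
Level of 6 other genes of the pathway in every library, in CPM on a linear axis, by group, with group means and SD (n = 3). Dppa3 is above 6.31 CPM in the 3 libraries of 2i+LIF HP and in no other, and Pclaf is at 10.4 CPM or less in these libraries and at 5.28 to 20.4 CPM in PO.

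Germline genes whose promoters are methylated in somatic cells, and that are known to be expressed when methylation is lost, gave 4 of 10 in the joint test: Dazl, Tex101, Taf7l and Stk31. Of all genes tested, 13.1% passed that test. Dazl was at 140.4, 413.2 and 182.1 CPM in 2i+LIF HP, above the libraries of all other groups, and at 15.3, 48.9 and 21.9 CPM in PO. It was higher than PO in 2i+LIF HP (3.08, edgeR adjusted p = 0.000633) and in CH+LIF HP (2.02, adjusted p = 0.021). The log2 difference of Dazl in 2i+LIF HP from 2i+LIF LP did not pass (1.63, SE 0.51, edgeR adjusted p = 0.0726). Those of CH+LIF HP (-1.06, SE 0.5, adjusted p = 0.41) and LIF HP (-1.63, SE 0.51, adjusted p = 0.071) from 2i+LIF HP did not pass either. Between media at HP, Stk31 was lower in LIF than in 2i+LIF (-1.9, SE 0.5, edgeR adjusted p = 0.033). In 2i+LIF HP, Tex101 was at 6.51, 8.18 and 15.3 CPM, in CH+LIF HP at 4.54, 7.63 and 3.81 CPM, and all other libraries had 2.66 CPM or less. It passed the filter on low counts through the groups where it is high, so its place among the 4 and its differences from 2i+LIF HP are a description. Of the 13 genes in the list 10 had enough counts to be tested. Several of these passed the filter on low counts through cultured groups only, with PO means of 0 CPM for Taf7l, 0.598 CPM for Slc25a31, 0.687 CPM for Tex101 and 0.841 CPM for Ddx4, and could pass relative to PO only as higher. No count or median over the list is therefore given against PO. Taf7l had 0 counts in the 3 PO libraries and 4.36 to 90.1 CPM in all others, and PO also differs from the rest by sequencing run. Expression of these genes is no measure of methylation at their promoters.

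Dnmt1 and Uhrf1 are known to be higher in S phase, so 15 S-phase genes were set beside them. In the joint test 2 of the 15 passed, Gins2 and Rrm1, a share near the 13.1% of all genes tested. Among HP libraries, those in LIF had more Gins2 than those in 2i+LIF (1.79, SE 0.5, edgeR adjusted p = 0.0439), and Rrm1 fell from LP to HP in LIF by 1.04 (SE 0.3, adjusted p = 0.0258). The median log2 difference of the list from LP to HP was -0.24 in 2i+LIF, -0.06 in CH+LIF and -0.15 in LIF. Over all genes tested it was 0.01, 0 and 0.01. Two-cell-like markers, 5 in the list, summed to 9.27 to 12.1 CPM in 2i+LIF HP, the group with high Uhrf2 and Dppa3, and to 0 to 8.43 CPM in the other groups; Zscan4f was at 0 in all. Their part in these values was not tested. These are bulk libraries, in which fewer cells that express a gene and less RNA per cell cannot be told apart.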

How the data were processed

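RNA was measured by mRNA sequencing in 21 libraries of E14Tg2a cells, 7 groups of 3. Each library has a table, deposited by the authors, that lists raw counts for Ensembl gene IDs without any scaling. Per the submitters' processing notes, bcl2fastq, STAR 2.6.0a and HTSeq were used with the build mm10; annotation, strand setting and filters are not given in the sources used here. Gene counts made up 47.4 to 62% of the entries of a library. The closing entries, which name no gene, stayed out of library sizes and tests: reads outside genes were 8.46 to 25.8%, ambiguous reads 0.179 to 0.683% and alignments that were not unique 20.8 to 35.4%. Gene counts ranged from 1132126 to 3783043 per library, which limits the precision for low genes. Gene symbols and coordinates were taken from GENCODE M21 (GRCm38), which holds 31011 of the IDs and lacks 42.

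All libraries entered 1 quasi-likelihood fit in edgeR 4.0.16 (R 4.3.3) in which each group had its coefficient (14 residual degrees of freedom). TMM scaling was used, and filterByExpr kept 10643 genes. All tests are two-sided; p-values were adjusted by Benjamini-Hochberg over all genes within each contrast, at a threshold of 0.05. There were 15 pairwise contrasts, 3 interactions and 1 joint test. CPM are counts divided by the TMM-scaled library size and multiplied by 1e6, log2 CPM used a prior count of 2 and ratios 0.5 added counts. Intervals are at 95%. A count of 0 was taken to allow 3 counts. Replicates of a group differed by more than sampling noise (lowest chi-square per degree of freedom 4.82). Alternatives were DESeq2 1.42.0, its size factors in edgeR, no low-count filter, only the groups compared, a replicate block, removal of mitochondrial genes and Gm42418, omission of the libraries that stood apart, omission of each library in turn and another pseudocount for ratios. The members and lists were chosen with earlier results of these data known. Named were all members, the list genes that passed the joint test (at most 5 a list, by p) and the 3 nearest genes of each member with a mean of at least 20 CPM.

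The groups share replicate numbers, and the labels do not say what a number marks. Same-numbered libraries deviated together (all 3 correlations over 0.1) in 1 of 15 contrasts, that between 2i+LIF LP and PO (0.397, 0.345 and 0.179), where the block changed no member's call. The fit was tested on simulated counts for LIF HP against LIF LP. Counts were drawn with each gene's fitted spread and 1 mean for all groups, and 200 genes were changed in LIF HP only. The simulation thus held no libraries that stood apart. In it 8-fold changes were recovered for 170 of 197 genes (86.3%, 10352 genes run) and 4-fold changes for 100 of 195 (51.3%, 10315 genes run). False calls were 9 (5.03% of calls) at 8-fold and 7 (6.54%) at 4-fold.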

Additional observations from a re-analysis of the deposited data

Results flagged for a closer look

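A pair of results is given again because an effect differed between media by a test of the difference itself. The change of Uhrf2 from LP to HP differed between LIF and 2i+LIF by -3.67 on the log2 scale (SE 0.62, 95% interval -4.94 to -2.4, edgeR adjusted p = 0.00681). In 2i+LIF all HP libraries lay above all LP libraries, while in LIF they overlapped, and the call held in all 28 alternative settings (adjusted p up to 0.0306). The change of Dnmt3l from LP to HP differed between LIF and CH+LIF by -5.4 (SE 0.97, 95% interval -7.38 to -3.41, edgeR adjusted p = 0.0103). In LIF HP the fit rests on 6 counts of Dnmt3l over 3 libraries, and the call held in 26 of 28 settings (adjusted p up to 0.0638).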

How the results depend on the processing

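Of the 26 calls for members, 10 held in all 28 alternative settings and 0 reversed; among the tests without a call, 20 gave one in at least 1 setting. With each library left out in turn, the number of calls ranged from 3 to 7 in the joint test (main value 5), 0 to 0 between media at LP (0), 3 to 6 at HP (4), 3 to 8 between HP and LP (5), 6 to 13 against PO (10) and 1 to 3 in the interactions (2), and from 7 to 16 for list genes (12). The joint test gave 3 without LIF HP replicate 2. HP against LP gave 8 without PO replicate 1 and 3 without LIF LP replicate 2 or LIF HP replicate 3. Comparisons with PO gave 6 without PO replicate 2, interactions 1 without CH+LIF LP replicate 3 or LIF HP replicate 2, and list genes 7 without 2i+LIF HP replicate 2. DESeq2 called 1 member between media at LP (Uhrf2) and 8 between HP and LP, adding Dnmt3b in 2i+LIF and LIF and Tet1 in 2i+LIF. With only the groups compared in the fit there were 7 calls between media at HP and 3 against PO. Without both libraries that stood apart 20 list genes passed. The cause of these shifts was not tested.

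With the replicate block, whose numbers do not pair the libraries in 14 of the 15 contrasts, there were 6 calls in the joint test, 0 at LP, 4 at HP, 7 between HP and LP, 11 against PO, 2 in the interactions and 13 for list genes. It added Dnmt3b and Tet1 in 2i+LIF HP against LP, Tet1 in 2i+LIF HP against PO and Tet2 in the joint test, and no call was lost. With 3 libraries a group, leaving out 1 cannot move a mean log2 ratio by 1 SD, so the omissions are no check of the ratios: that of Dnmt3l to Dnmt3a became 1.95 in place of 0.85 in 2i+LIF LP, and 2.22 in place of 1.22 in PO, without replicate 1 of each. Depth limits Tet3, with 2 to 45 counts per library, and Dnmt3l in LIF HP most.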

Other observations

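The log2 CPM of 7 of the 9 members had a Pearson r of at most 0.25 in size with the mitochondrial share over the 21 libraries; for Tet1 it was 0.32 and for Tet2 0.4, given as a description. With the log of the gene counts, r was -0.46 for Dnmt3a and 0.32 for Uhrf1. Sp5 was at 135.2, 493.9 and 455.3 CPM in 2i+LIF HP, where Uhrf2, Dppa3 and Dazl were highest, and at 62.4 CPM or less in all other libraries, CH+LIF LP (0.605 to 1.52 CPM) being below LIF HP (19.6 to 30.2 CPM) against their labels. Its part in these values was not tested.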
